A study of Homo sapiens with 6 samples.

Results

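The 42 genes described here encode the spindle assembly checkpoint, the outer kinetochore it watches, and the anaphase-promoting complex (APC/C) it holds back. They were chosen by function, with earlier results of these data known. They are the rows of both deposited tables whose gene ID maps to a listed symbol, and all 42 were found among 62111 gene IDs. RNA was measured in K562 cells, an established human line of erythroid character derived from chronic myeloid leukaemia. There were 3 libraries from cells with SF3B1-K700E (K700E), a substitution in the splicing factor SF3B1, and 3 from cells with wild-type SF3B1 (WT). How the K700E cells were made, whether they are a single clone and whether replicates came from separate cultures is not given in the sources used here, so each p-value covers the spread among these 6 libraries alone, which may be technical.

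At a kinetochore without microtubules, the kinases TTK and BUB1 recruit MAD1 and MAD2, and a complex of MAD2, BUBR1 (encoded by BUB1B), BUB3 and CDC20 forms and blocks the APC/C. Once all kinetochores are attached the block ends, and the APC/C, a ubiquitin ligase of many subunits, marks securin and cyclin B for destruction so that chromosomes separate. Many of these genes are transcribed mainly in G2 and mitosis, through promoters with a cell cycle homology region (CHR) and CCAAT boxes, the binding sites of the MuvB complexes and of NF-Y, while most APC/C core subunits are expressed throughout the cycle.

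The promoter letters of 5 members are shown to set promoters with both motifs beside promoters without a CHR. BUB1, SPC25 and CDC20 have both motifs, whereas ANAPC5 and CDC26, the members with the smallest p-values in the comparison below, have no CHR, and CDC26 has no CCAAT either. Each window runs from 250 bases before to 50 bases from the RefSeq start site on GRCh38.p14, written 5′ to 3′ on the strand of the gene. The positions are chr2:110678014-110678313 (minus strand) for BUB1, chr2:168890381-168890680 (minus) for SPC25, chr1:43358731-43359030 (plus) for CDC20, chr12:121352362-121352661 (minus) for ANAPC5 and chr9:113275523-113275822 (minus) for CDC26. Capitals mark matches to the CHR (TTTGAA or TTCGAA) or to CCAAT, on either strand.
BUB1: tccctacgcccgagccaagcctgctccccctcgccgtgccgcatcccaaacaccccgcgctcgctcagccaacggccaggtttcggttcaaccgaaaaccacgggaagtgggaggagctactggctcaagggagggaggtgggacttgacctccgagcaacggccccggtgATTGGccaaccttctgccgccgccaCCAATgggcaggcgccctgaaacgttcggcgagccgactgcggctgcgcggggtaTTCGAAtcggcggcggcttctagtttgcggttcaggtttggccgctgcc
SPC25: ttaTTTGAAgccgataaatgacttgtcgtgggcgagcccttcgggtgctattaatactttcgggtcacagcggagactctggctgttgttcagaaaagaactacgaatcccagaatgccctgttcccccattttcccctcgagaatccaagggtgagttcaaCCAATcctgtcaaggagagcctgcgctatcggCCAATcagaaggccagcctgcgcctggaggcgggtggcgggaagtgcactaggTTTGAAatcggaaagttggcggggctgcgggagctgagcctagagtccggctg
CDC20: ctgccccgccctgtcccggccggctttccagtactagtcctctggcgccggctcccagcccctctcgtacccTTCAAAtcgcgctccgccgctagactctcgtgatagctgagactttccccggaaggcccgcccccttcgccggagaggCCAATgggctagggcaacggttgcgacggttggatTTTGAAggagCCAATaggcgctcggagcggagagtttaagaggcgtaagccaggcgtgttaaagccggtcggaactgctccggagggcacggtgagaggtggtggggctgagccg
ANAPC5: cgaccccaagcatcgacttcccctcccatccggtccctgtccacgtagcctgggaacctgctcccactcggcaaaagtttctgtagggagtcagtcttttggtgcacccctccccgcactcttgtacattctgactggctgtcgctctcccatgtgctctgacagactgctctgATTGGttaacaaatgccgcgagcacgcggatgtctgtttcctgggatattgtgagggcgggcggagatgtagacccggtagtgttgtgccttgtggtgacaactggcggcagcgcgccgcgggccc
CDC26: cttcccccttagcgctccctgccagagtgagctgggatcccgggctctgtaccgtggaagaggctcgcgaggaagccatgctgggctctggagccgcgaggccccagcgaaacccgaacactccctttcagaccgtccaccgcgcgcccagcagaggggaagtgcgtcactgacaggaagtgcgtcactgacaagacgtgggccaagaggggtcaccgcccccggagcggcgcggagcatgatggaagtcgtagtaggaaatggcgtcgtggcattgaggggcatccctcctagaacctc

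Promoters were found for 36 of the 42 members. A CHR match stood in 12 of 18 promoters of checkpoint, kinetochore and passenger genes (66.7%), in 2 of 14 of APC/C subunits (14.3%), and in 16.6% of 27305 promoters of the same length. CCAAT was present in 11 of the 18 (61.1%) and in 5 of the 14 (35.7%), against 35.7% of all promoters. Both motifs together were present in 8 of the 18 (44.4%), in 0 of the 14 and in 6.58% of all promoters. Of the 10027 promoters of genes tested, 11.3% had a CHR match, 36.9% had CCAAT and 4.94% had both. Of 4 promoters of coactivator, inhibitor and E2 genes, 2 had a CHR match, 2 had CCAAT and 1 had both. In BUB1 the CCAAT matches began 79 and 54 bases before the start site and the CHR match 1 base after it. In SPC25 they began 88 and 56 bases before it, with a CHR match 3 bases before it and another 247 bases before it. The CHR and CCAAT matches overlapped each other in a single promoter, that of CDCA8. A match is a description of these letters and was not tested as a binding site.

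**Figure D1:**
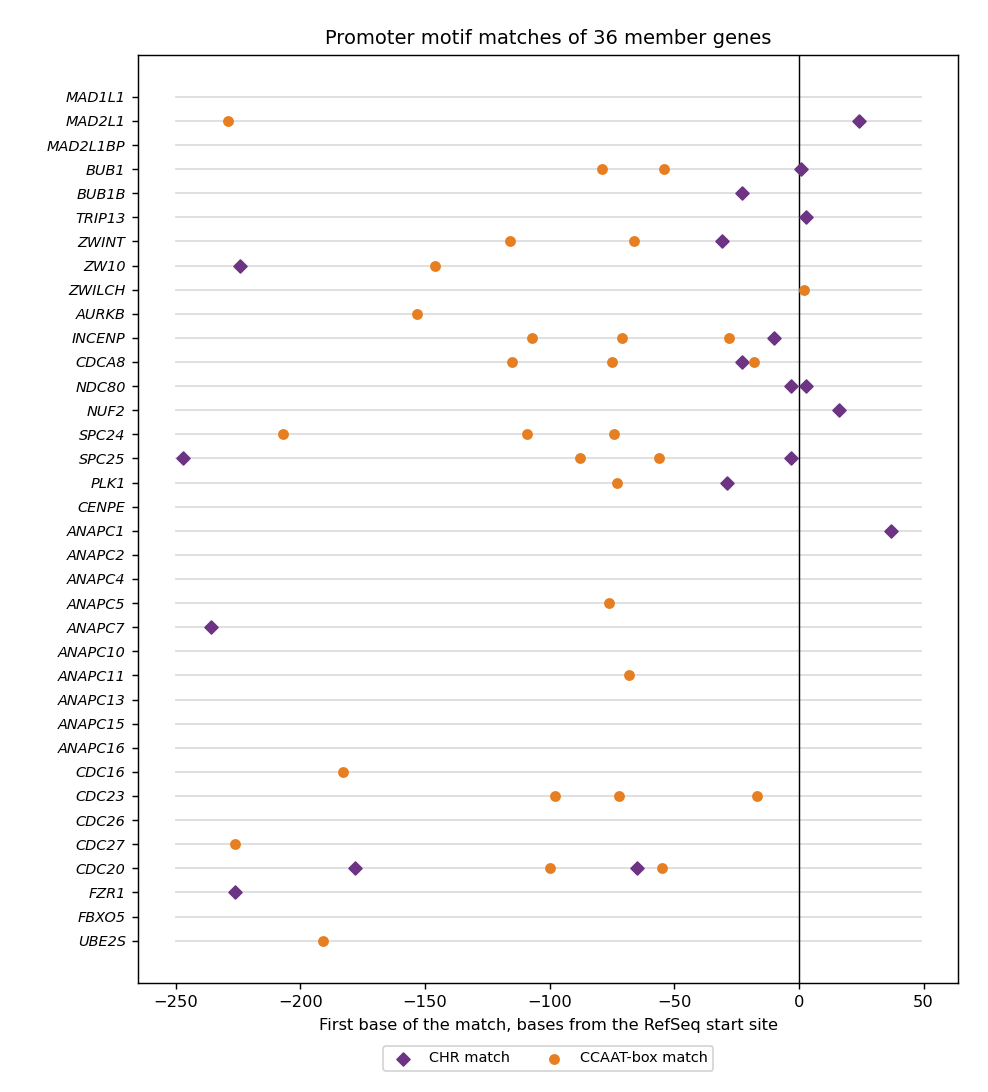
Positions of CHR matches (diamonds) and CCAAT matches (circles) in the 36 promoters found, with the first base of each match in bases from the RefSeq start site on the x axis and genes down the page. CHR matches are frequent among the checkpoint and kinetochore genes at the top and less frequent among the APC/C subunits below them.

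The deposited values were TPM, reads per gene divided by gene length and scaled to 1000000 per library. Comparisons of listed level between genes rest on those lengths and on how shared reads were counted. Reads recovered from the TPM came to between 104642332 and 136588117 per library, counting read ends. The K562 identity was checked on markers, and all 7 erythroid markers lay between 27.9 and 3710 TPM while CDKN2A and CDKN2B, deleted in this line, were listed at 0. The highest value was that of HBE1 in K700E replicate 1, and HBE1 had 603 to 1368 TPM in the other libraries. Of 18 markers of other lineages 13 had a mean under 1 TPM. The 5 fibroblast and epithelial markers summed to 3.51 to 5.33 TPM in K700E and to 1.58 to 2.78 TPM in WT, and the 5 monocyte and granulocyte markers to 68.1 to 188 TPM in K700E and to 121 to 145 TPM in WT. SF3B1 averaged 138 ± 21.5 TPM in K700E and 119 ± 22.6 TPM in WT (SD, n = 3 each), a log2 difference of 0.22 (SE 0.18) that did not pass limma's test (adjusted p 0.602). The WT libraries are in one deposited table and the K700E libraries in another, so any difference in processing between the tables cannot be told apart from genotype.

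The comparison asked whether K562 cells with SF3B1-K700E express checkpoint and APC/C genes at another level, a question set by the series title, which names cell cycle checkpoint genes. None of the 41 members tested passed. The count was 0 higher and 0 lower in K700E, where 1.15% of all 15493 genes tested were higher and 0.232% lower (1.38% in either direction) at a limma adjusted p under 0.05. A limma-voom fit on recovered reads also called 0 of 41, where it called 1.39% of 22158 genes higher and 0.325% lower (1.72% in either direction). At an unadjusted limma p under 0.05 there were 2 of 41 members, CDC26 and ANAPC5, against 16.5% of all genes tested. Together the 42 genes summed to 3060, 2703 and 2562 TPM in the K700E libraries and to 3076, 2402 and 2801 TPM in the WT libraries, so the summed levels overlapped.

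Most differences were bounded rather closely. The 95% interval of the difference on the log2(TPM + 1) scale lay within a 2-fold change in either direction for 39 of the 41 members, and within 1.5-fold for 22. Of all 15493 genes tested, 12608 lay within the 2-fold bound and 5464 within the 1.5-fold bound. The members outside the 2-fold bound were CENPE, whose interval ran from -0.55 to 1.17, and ANAPC2, from -1.03 to 0.85. These intervals are per gene and not adjusted for their number. All genes tested had a median difference of 0.13, K700E minus WT, and differences of member groups are given below relative to that median.

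**Figure D2:**
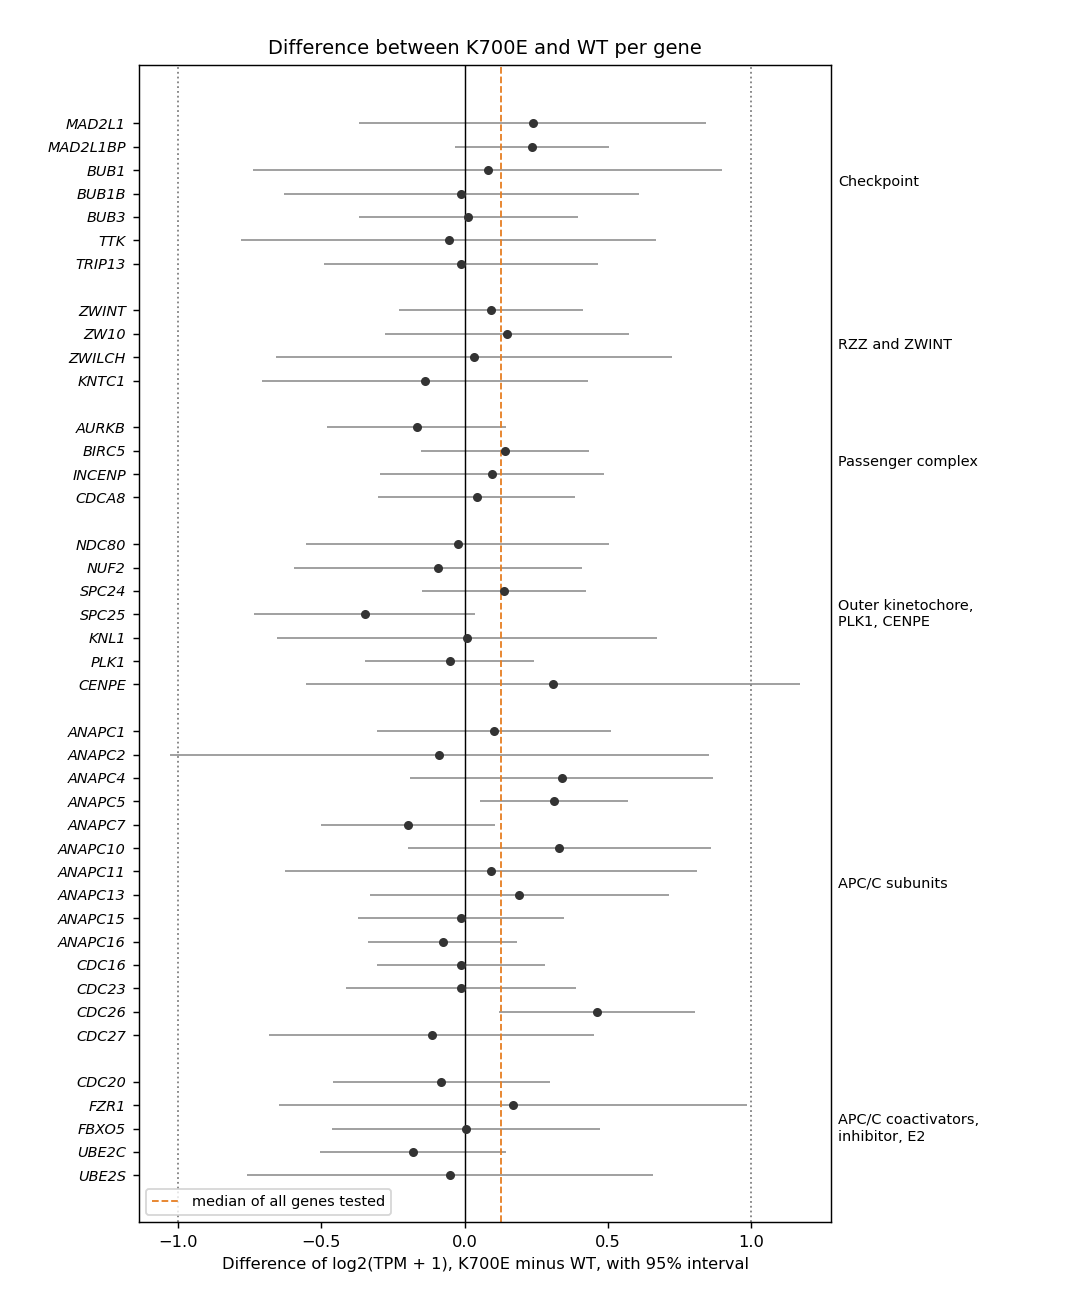
Difference of log2(TPM + 1), K700E minus WT, of the 41 tested members (points) with its 95% interval (lines), by role group; the dashed line is the median of all genes tested and the dotted lines mark a 2-fold change. Intervals of CDC26 and ANAPC5 lie above 0, and those of CENPE and ANAPC2 pass a 2-fold line.

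The values of the 3 K700E libraries and the 3 WT libraries did not overlap in 6 of the 41 members (14.6%), against 24.0% of all genes tested. CDC26, ANAPC5, MAD2L1BP and SPC24 were above WT in every K700E library, 4 members where 19.0% of all genes were. ANAPC7 and UBE2C were below WT in every K700E library, 2 members where 4.99% of all genes were. The smallest exact permutation p that 3 libraries against 3 allow is 0.1, so the test of a single gene rests on the model fitted across all genes.

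**Figure D3:**
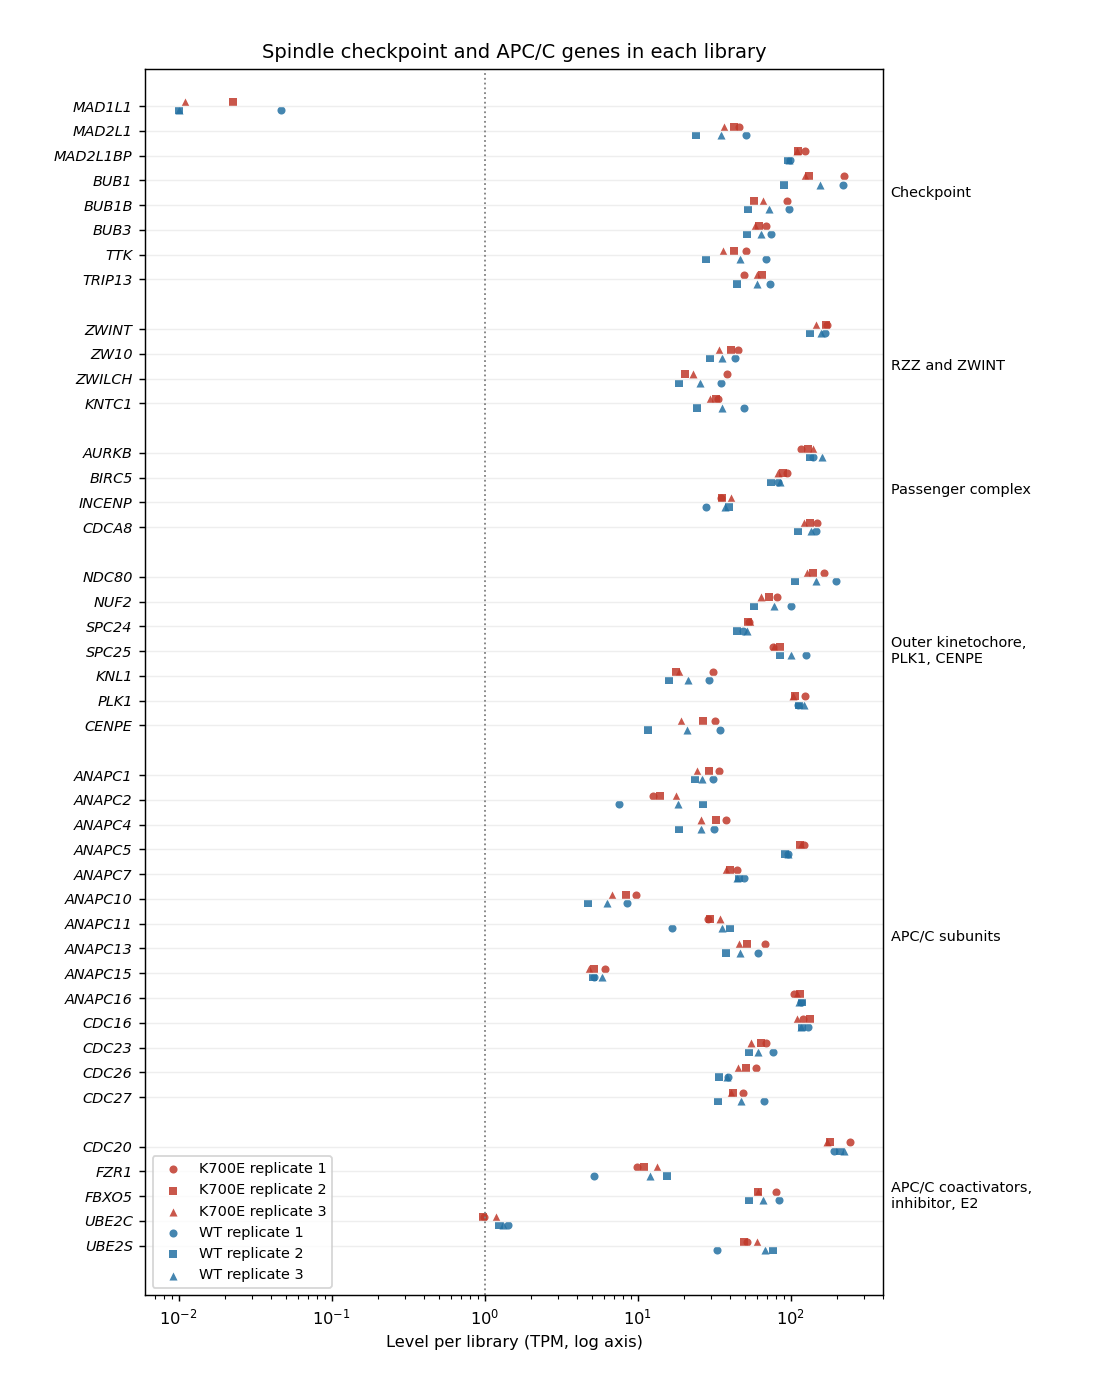
Level of each of the 42 members in each library (TPM, log axis), K700E libraries in red above WT libraries in blue, by role group; the dotted line marks 1 TPM, and values of 0 are not drawn. MAD1L1 lies below 0.05 TPM and UBE2C near 1 TPM, and the BUB1 and ANAPC2 points of the WT libraries lie far apart.

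The mitotic checkpoint proteins had no member past the test, and their median difference was -0.12 relative to the median gene (7 of 8 tested). BUB1, the kinase that docks the checkpoint at kinetochores (ENSG00000169679, GRCh37 chromosome 2, 111395105 to 111435640, minus strand), had 222, 132 and 124 TPM in K700E and 219.7, 90.3 and 155 TPM in WT. The groups overlapped. TTK, the kinase that starts checkpoint signalling, had 51.1, 42.7 and 36.3 TPM in K700E and 68.5, 27.9 and 46.4 TPM in WT. BUB1B, the gene of the APC/C inhibitor BUBR1, had 94.6, 58.0 and 66.1 TPM in K700E and 97.7, 52.8 and 72.0 TPM in WT. In these kinase genes the WT values spread further than the K700E values, and replicate 1 was the highest library of both groups.

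MAD2L1 encodes MAD2, the protein that clasps CDC20, and stood at 45.8, 42.8 and 36.7 TPM in K700E and 51.2, 24.2 and 34.9 TPM in WT. Its log2 difference was 0.24 (SE 0.26, limma adjusted p 0.700), within the spread of the WT libraries, and without WT replicate 2 it was -0.022. MAD2L1BP encodes p31comet, which with the ATPase TRIP13 takes MAD2 out of the checkpoint complex. It had 124, 111 and 110.4 TPM in K700E and 98.6, 96.0 and 98.1 TPM in WT. All K700E libraries were above all WT libraries, with a log2 difference of 0.24 (SE 0.12) and a limma adjusted p of 0.365. With median-ratio scaling the difference of MAD2L1BP was 0.093, with TMM scaling 0.11 and with GC correction 0.079. TRIP13 itself averaged 58.1 ± 7.85 TPM in K700E and 59.5 ± 14.4 TPM in WT, and BUB3, the partner of both BUB1 and BUBR1, 63.2 ± 5.42 and 63.1 ± 11.2 TPM in K700E and WT (SD, n = 3 each).

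MAD1L1, the gene of MAD1, the kinetochore receptor of MAD2, could not be compared. It had 0, 4 and 2 recovered reads in K700E and 7, 2 and 2 in WT, or at most 0.0468 TPM, and was below the level tested. Of its exon bases in the deposited annotation, 2711 (78.7%) are shared with another gene ID on the same strand, ENSG00000286192, which spans GRCh37 chromosome 7, 1855440 to 2281850. That ID had a mean of 1.86 TPM over the 6 libraries, with at most 2.47 TPM. How the authors treated reads in shared exons is not given in the sources used here, so the expression of MAD1L1 cannot be read from its listed level, and whether shared reads or low expression set that level was not tested.

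The Rod-Zw10-Zwilch complex recruits dynein and MAD1 to kinetochores, and ZWINT links it to the outer kinetochore. Its median difference was -0.066 relative to the median gene, with 0 of 4 past the test. ZWINT was the most abundant, at 173, 170.4 and 147 TPM in K700E and 168, 135 and 157 TPM in WT. ZW10 averaged 39.96 ± 5.42 TPM in K700E and 36.2 ± 6.87 TPM in WT (SD, n = 3 each), and limma's log2 difference of 0.15 (SE 0.18) had an adjusted p of 0.735 and was 0.0079 with median-ratio scaling. The difference of the means was smaller than either spread. KNTC1, which encodes Rod, had 33.4, 32.6 and 29.6 TPM in K700E and 49.6, 24.5 and 35.4 TPM in WT. The K700E libraries of KNTC1 lay inside the range of the WT libraries. ZWILCH had 38.1 TPM in K700E replicate 1 and at most 23.2 TPM in the other K700E libraries, against 18.6 to 34.9 TPM in WT. It shares 1.58% of its exon bases with RPL4 on the other strand, which had a mean of 2758 TPM. The part of that overlap in the level of ZWILCH was not tested.

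The chromosomal passenger complex corrects faulty attachments through the kinase Aurora B. Its summed level was 395, 389.5 and 385 TPM in K700E and 396, 360.2 and 419 TPM in WT, and 0 of its 4 genes passed. AURKB, the kinase, stood at 116, 130.2 and 140.1 TPM in K700E and 139.9, 134 and 160.4 TPM in WT (log2 difference -0.17, SE 0.13, limma adjusted p 0.581; -0.31 with median-ratio scaling). The highest K700E library exceeded the lowest WT library. BIRC5, the gene of survivin, averaged 89.2 ± 6.36 TPM in K700E and 80.9 ± 5.63 TPM in WT (SD, n = 3 each), and limma's log2 difference of 0.14 (SE 0.12) had an adjusted p of 0.629. CDCA8, which encodes borealin, and the scaffold gene INCENP had log2 differences of 0.043 and 0.097.

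The NDC80 complex holds microtubule ends, with NDC80 and NUF2 at the microtubule and SPC24 and SPC25 at the kinetochore side. SPC25 (ENSG00000152253, GRCh37 chromosome 2, 169727401 to 169746940, minus strand) had the most negative difference of all members, at 77.0, 85.4 and 78.02 TPM in K700E and 126, 84.7 and 100.2 TPM in WT. A single K700E library lay above the lowest WT library. The log2 difference was -0.35 (SE 0.17) with a limma adjusted p of 0.352, and with a correction for GC content it was -0.47 with an adjusted p of 0.0451, the only call of a member in 16 alternative fits. That corrected fit called 1.74% of 15129 genes higher and 1.51% lower (3.25% in either direction), so 1 of 41 members is near that background. SPC24, its partner, had 53.3, 52.3 and 54.1 TPM in K700E and 48.7, 44.5 and 51.9 TPM in WT (log2 difference 0.14, SE 0.12, limma adjusted p 0.630), a difference of -0.0042 with median-ratio scaling.

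Of 7 ratios between members that were computed, SPC25 to SPC24 was the only one whose groups did not overlap; it was examined after these values were seen and was given no test. It was 1.45, 1.63 and 1.44 in the K700E libraries and 2.58, 1.90 and 1.93 in the WT libraries, and for single genes the groups did not overlap in 24.0% of all genes tested. The other pair of the complex held a narrow ratio, with NDC80 over NUF2 at 2.02, 1.92 and 2.01 in K700E and 1.95, 1.85 and 1.87 in WT. NDC80 itself varied from 107 to 197 TPM among the WT libraries and from 129 to 165 TPM among the K700E libraries. The GC contents of the transcripts were 40.0% for SPC25, 58.6% for SPC24, 41.3% for NDC80 and 38.6% for NUF2, and their part in the ratios was not tested.

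**Figure D4:**
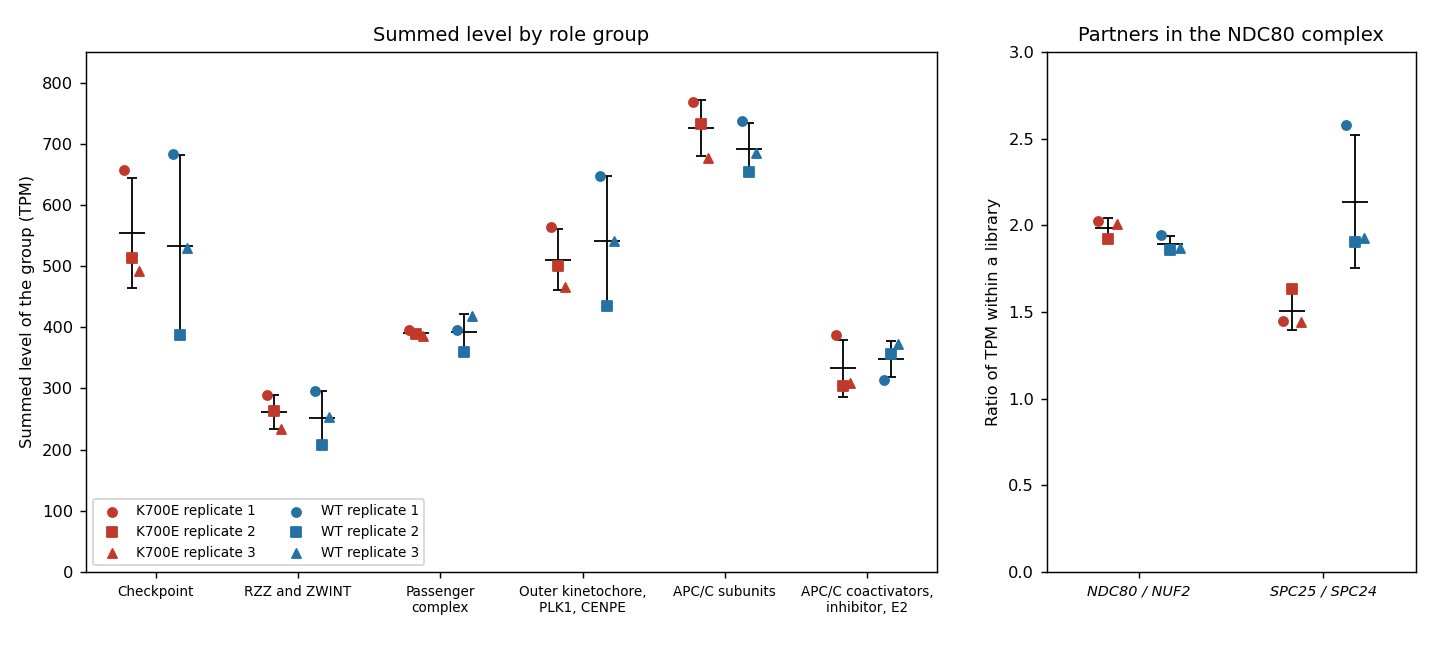
Left, summed TPM of the members of each role group in each library; right, ratio of TPM of NDC80 to NUF2 and of SPC25 to SPC24 in each library. Points are libraries (K700E red, WT blue), and bars are the mean ± SD of 3 libraries. The groups overlap in every sum, and the SPC25 to SPC24 ratio is at most 1.63 in K700E and at least 1.90 in WT, the only 1 of 7 computed ratios whose groups do not overlap.

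Among the other genes of this group, KNL1, the scaffold on which BUB1 and BUB3 bind, averaged 22.4 ± 7.54 TPM in K700E and 22.2 ± 6.76 TPM in WT. PLK1, a kinase of mitotic entry and attachment, averaged 112 ± 11.2 TPM in K700E and 116 ± 5.82 TPM in WT. CENPE, a kinesin that carries chromosomes to the spindle equator, had 32.2, 26.8 and 19.3 TPM in K700E and 34.5, 11.7 and 20.9 TPM in WT. Its WT libraries differed 2.94-fold between replicates 1 and 2, the widest such ratio in favour of replicate 1 among the 41 tested members.

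The 14 APC/C subunits ranged from 5.37 TPM for ANAPC15 to 122 TPM for CDC16, as means over the 6 libraries, and 0 passed. Their median difference was -0.088 relative to the median gene, 5 of 14 lying above it. CDC26, a small subunit that stabilises CDC16 (ENSG00000176386, GRCh37 chromosome 9, 116029272 to 116037852, minus strand), had the smallest p of all members. It stood at 59.0, 51.0 and 45.2 TPM in K700E and 39.2, 34.1 and 38.1 TPM in WT. Every K700E library was above every WT library, and the log2 difference was 0.46 (SE 0.15, 95% interval 0.12 to 0.80, limma adjusted p 0.187). Over the 16 alternatives the difference of CDC26 ran from 0.32 to 0.55 and its limma adjusted p from 0.1002 to 0.519. A named copy, CDC26P1, had a mean of 1.94 TPM.

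ANAPC5, a subunit of the platform that carries the catalytic core (ENSG00000089053, GRCh37 chromosome 12, 121746048 to 121790214, minus strand), varied little within either group. It stood at 122, 115 and 116 TPM in K700E and 95.7, 92.05 and 96.5 TPM in WT, without overlap. The log2 difference was 0.31 (SE 0.11, 95% interval 0.054 to 0.57, limma adjusted p 0.226), or 0.18 relative to the median gene. With median-ratio scaling, which moved the median of all genes to about 0, the difference was 0.17.

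ANAPC7, which binds coactivators, was lower in every K700E library, at 44.8, 40.3 and 37.6 TPM in K700E and 49.7, 46.2 and 44.9 TPM in WT (log2 difference -0.20, SE 0.13, limma adjusted p 0.502; -0.34 with median-ratio scaling). The gap between the groups was smaller than the spread within K700E. ANAPC4 and ANAPC10 had log2 differences of 0.34 (SE 0.23) and 0.33 (SE 0.23) with limma adjusted p of 0.506 and 0.518, and their groups overlapped; with median-ratio scaling both differences were 0.20. ANAPC10, which helps to bind substrates, had 9.77, 8.36 and 6.83 TPM in K700E and 8.51, 4.73 and 6.30 TPM in WT. It shares 5.61% of its exon bases with ABCE1 on the other strand, which had a mean of 109 TPM, and whether strand was used in counting is not given in the sources used here.

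ANAPC2, the cullin of the catalytic core, and ANAPC11, its RING partner that binds the E2 enzyme, had the widest WT ranges of the 14 APC/C subunits on the log2 scale. ANAPC2 had 12.5, 14.04 and 17.9 TPM in K700E and 7.58, 26.7 and 18.4 TPM in WT. ANAPC11 had 28.9, 29.8 and 34.6 TPM in K700E and 16.8, 40.2 and 35.8 TPM in WT. In both genes WT replicate 1 was the lowest and WT replicate 2 the highest of the 6 libraries. The subunits of the TPR arms, CDC16, CDC23 and CDC27, had log2 differences of -0.011, -0.013 and -0.11, and CDC16 averaged 122 ± 11.3 TPM in K700E and 122 ± 7.06 TPM in WT (SD, n = 3 each). ANAPC1, the largest scaffold subunit, and the small subunits ANAPC13, ANAPC15 and ANAPC16 had log2 differences of 0.10, 0.19, -0.012 and -0.077, with overlapping groups.

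Of the proteins that switch the APC/C on, CDC20 acts in mitosis and FZR1, which encodes CDH1, from late mitosis through G1. CDC20 was the most abundant member, at 243, 181 and 172 TPM in K700E and 191, 209 and 225 TPM in WT, and the K700E libraries reached both above and below the WT range. FZR1 had 9.91, 10.95 and 13.5 TPM in K700E and 5.18, 15.5 and 12.1 TPM in WT, and its WT range enclosed the K700E range. FBXO5, the gene of the interphase inhibitor EMI1, averaged 67.5 ± 11.1 TPM in K700E and 67.8 ± 15.4 TPM in WT (SD, n = 3 each). A named copy, CDC20P1, had a mean of 7.91 TPM, a small part of the level of CDC20.

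UBE2C starts ubiquitin chains on APC/C substrates and UBE2S lengthens them. UBE2S had 52.2, 49.4 and 60.2 TPM in K700E and 33.0, 77.1 and 67.6 TPM in WT. A named copy, UBE2SP1, had a mean of 8.14 TPM, against 56.6 TPM for UBE2S. UBE2C was listed at 0.992, 0.976 and 1.19 TPM in K700E and 1.41, 1.24 and 1.32 TPM in WT, from 57 to 98 recovered reads, at the 3.82 percentile of tested genes (log2 difference -0.18, SE 0.14, limma adjusted p 0.571). The copies UBE2CP5 and UBE2CP2 had means of 4.60 and 2.12 TPM, above that of UBE2C itself. UBE2CP2 had 3.25, 3.73 and 2.83 TPM in K700E and 0.768, 0.509 and 1.63 TPM in WT, above WT in every K700E library where UBE2C was below it, and its part in the UBE2C difference was not tested. Whether reads that match several copies were discarded or divided is not given in the sources used here, so the level of UBE2C is uncertain. The other 40 members apart from MAD1L1 and UBE2C had at least 531 recovered reads in every library.

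A common order of the libraries ran through the members. Among the WT libraries, replicate 1 was the highest and replicate 2 the lowest in 26 of 41 members (63.4%), against 43.6% of all genes tested, and in 17 of the 22 checkpoint, kinetochore and passenger genes. The median of those 22 genes was 0.63 higher in WT replicate 1 than in WT replicate 2 on the log2 scale, against a median of 0.086 over all genes. Among the K700E libraries, replicate 1 was the highest and replicate 3 the lowest in 24 of 41 members (58.5%), against 29.1% of all genes. The range within WT exceeded the difference between the group means in 35 of the 41 members (85.4%), against 73.3% of all genes. In RNA from a whole culture, fewer cells in mitosis and less of each transcript per cell cannot be told apart.

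The order of the WT libraries varied with the GC content of the transcripts, but members also differed from other genes of like GC content. The median GC content was 45.2% for the members and 49.6% for all genes tested. BUB1 was 1.27 higher in WT replicate 1 than in WT replicate 2, above the upper quartile of its GC bin, 0.68. ANAPC16, at -0.021, was below the lower quartile of its bin, 0.14. The 26 members with WT replicate 1 highest and replicate 2 lowest had a median GC content of 41.9%, between 34.5% and 51.7%. The 5 members with the opposite order, INCENP, ANAPC2, ANAPC11, FZR1 and UBE2S, lay between 57.8% and 62.7%. Across the 41 members the difference between WT replicates 1 and 2 had a Pearson r with GC content of -0.863 and a Spearman rho of -0.845, and across 15129 tested genes with a GC value these were -0.697 and -0.706. The difference between K700E replicates 1 and 3 had a Spearman rho with GC content of -0.644 across the members and -0.456 across all genes. These are descriptions across genes of single pairs of libraries, and genes are not independent replicates. Across the 41 members the difference between K700E and WT had a Pearson r with GC content of -0.0841. The part of GC content in the order of the libraries was not tested.

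**Figure D5:**
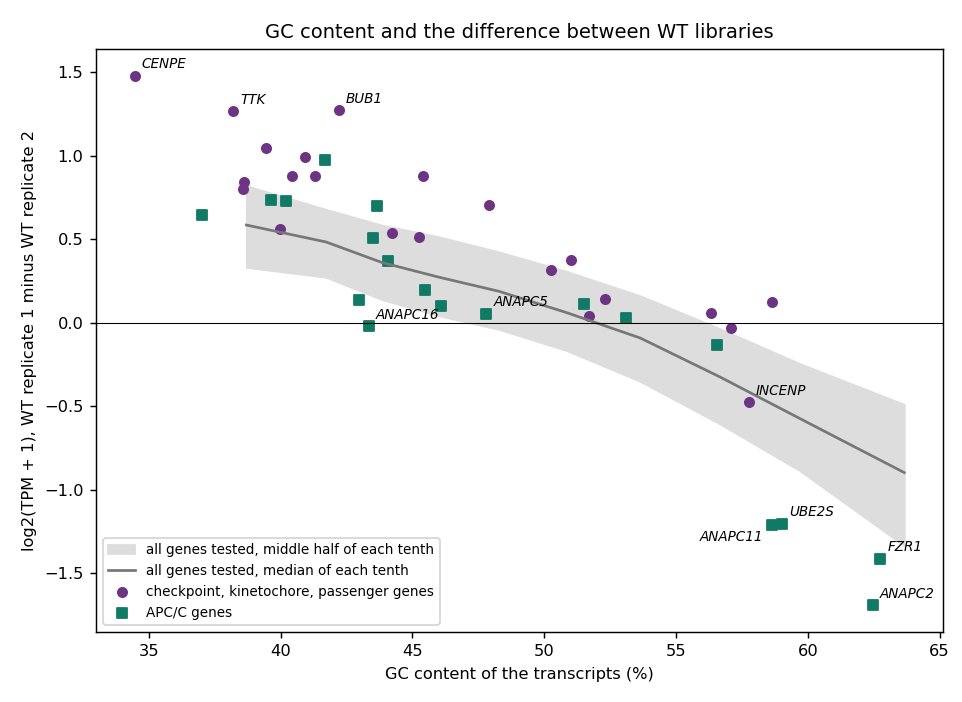
Difference of log2(TPM + 1) between WT replicate 1 and WT replicate 2 against the GC content of the transcripts, for 41 members (circles, checkpoint, kinetochore and passenger genes; squares, APC/C genes) and for all genes tested in bins of GC content (grey line, median; band, interquartile range). CENPE, TTK and BUB1 lie highest at low GC content, and ANAPC2 and FZR1 lie lowest at high GC content.

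As a group the 22 checkpoint, kinetochore and passenger members lay at a median of -0.11 relative to the median gene, with 6 above and 16 below it. This value rested on single WT libraries, since it was 0.018 without WT replicate 1 and -0.26 without WT replicate 2. The 19 APC/C members lay at -0.14, with 6 above and 13 below. Without 1 library the APC/C median stayed between -0.13 and -0.086.

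Genes that act beside the members were read from 4 further lists, and none of these passed either. The count was 0 of 28 other kinetochore and centromere genes, 0 of 19 tested APC/C substrates and separase, 0 of 10 tested further APC/C regulators and 0 of 18 regulators of mitotic transcription, each by limma over all genes, with 0, 2, 0 and 2 at an unadjusted p under 0.05. Of all genes tested, 1.38% passed and 16.5% had an unadjusted limma p under 0.05. In the same order the medians of the 4 lists lay at -0.038, -0.0072, -0.024 and 0.023 relative to the median gene. SGO2, which protects cohesin at centromeres, averaged 21.9 ± 6.13 TPM in K700E and 16.4 ± 7.401 TPM in WT, and CENPI, a component of the inner kinetochore, 8.56 ± 0.609 and 6.83 ± 1.72 TPM in K700E and WT. GMNN, the gene of the replication inhibitor geminin, averaged 113 ± 8.78 TPM in K700E and 88.5 ± 12.4 TPM in WT (limma adjusted p 0.275). RRM2, a subunit of ribonucleotide reductase, had the smallest adjusted p of the 4 lists, 0.0640, with a log2 difference of 0.71 (SE 0.14).

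Of the other genes taken by smallest p, USP37, a deubiquitinase that opposes the APC/C, averaged 6.91 ± 0.708 TPM in K700E and 5.33 ± 1.15 TPM in WT, and PPP2R2A, a PP2A subunit of mitotic exit, 44.5 ± 4.78 and 37.2 ± 9.22 TPM in K700E and WT. CDKN1A, the gene of the inhibitor p21, which represses mitotic genes through MuvB complexes, averaged 100.2 ± 12.7 TPM in K700E and 66.0 ± 10.5 TPM in WT (limma adjusted p 0.143). NFYA, the subunit of NF-Y that contacts CCAAT, had 53.8, 57.9 and 51.2 TPM in K700E and 47.3, 37.1 and 40.2 TPM in WT (log2 difference 0.38, SE 0.14, limma adjusted p 0.238). Its K700E libraries were all above its WT libraries, as they were in 19.0% of all genes tested. Among 28 other kinetochore genes 24 (85.7%) had WT replicate 1 highest and WT replicate 2 lowest, the order seen in the members. Of all genes tested 43.6% had that order.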

How the data were processed

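Libraries made from total RNA with an mRNA protocol, per the labels' protocols, from 6 K562 samples were grouped by the genotype in their titles. The authors deposited TPM per gene in a table per genotype, and every column summed to 1000000. Per the submitters' processing notes, cutadapt 2.10, TopHat2 2.1, featureCounts 2.0.1, DESeq2 and GRCh37 (hg19) were used, while the column names of the WT table, per the file headers, end as STAR output does. The aligner and the counting settings of each table are not settled by the sources used here. Multiplying TPM by the gene length in the WT table gave, in all 6 libraries, whole multiples of that library's step for 100% of genes within a tolerance of 0.01, and these multiples are the recovered reads. Each library was therefore scaled alone, and the tables were tested together. Recovered reads count read ends, and in every library more genes had 2 than 1 (3203 against 1124 in K700E replicate 1). The low counts quoted may thus stand for fewer fragments, and no counting error was computed for them.

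Symbols were matched for 58604 of 62111 IDs (94.4%). The test was limma 3.58.1 (R 4.3.3) on log2(TPM + 1), for the 15493 genes whose mean reached 1 TPM, with genotype as sole term, variances moderated along a trend in level, and two-sided p-values adjusted by Benjamini-Hochberg over all genes tested at 0.05. The log2(TPM + 1) scale understates changes of low genes. The procedure was tested on simulated data. Replicate numbers were not used to pair the libraries in the main fit. The deviations of same-numbered libraries correlated at 0.281, -0.192 and 0.299, and those of differently numbered libraries at -0.475 to 0.428. With 3 libraries per group these values cannot show whether libraries were paired.

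Members and lists were chosen with earlier results of these data known. Differences with SE and adjusted p are given for the 12 members with the smallest p and the smallest of each role group (13 genes), and for SF3B1. In each further list the 2 genes with the smallest p are named. GC content came from GENCODE 29 transcripts, averaged per gene and joined by gene ID (97.7% of tested genes). Promoter sequences are RefSeq's. Alternatives changed the pseudocount (0.1 or 5), the filter (none or 5 TPM), the scaling (median-ratio or TMM) and the trend (none), left out libraries in turn, used the replicate number as a block, and ran limma-voom on recovered reads with a mean of at least 10 and a loess correction on GC content. Joins used Python 3.11.15 with pandas 2.3.3 and numpy 2.4.6, correlations scipy 1.17.1, and figures matplotlib 3.10.9. Splice junctions were not analysed here.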

Additional observations from a re-analysis of the deposited data

How the results depend on the processing

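No member was called in 15 of the 16 alternatives. With GC correction 1 member was lower, SPC25 (log2 difference -0.47, limma adjusted p 0.0451), where 0 were without it; 1.51% of 15129 genes were lower in that fit, so 1 of 41 is near the background. Of the 13 members with full statistics 10 kept their direction in every alternative that gave them a value, which was all 16 except for UBE2C, with 15, since it is below the 5 TPM filter. The exceptions were MAD2L1 with 1 library left out (-0.022 without WT replicate 2, up to 0.50 without WT replicate 1), BIRC5 with median-ratio scaling (-0.0023) and GC correction (-0.017), and SPC24 with median-ratio scaling (-0.0042) and GC correction (-0.015). Of all 41 members 13, UBE2C among them with its 15 alternatives, kept their sign.

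Over all genes 178 were higher and 36 lower in K700E. The counts were 0 and 0 with no filter on low values (38861 genes tested, 4891 at an unadjusted p under 0.05), 73 and 19 with a filter at 5 TPM, and 309 and 72 with limma-voom on recovered reads. With GC correction 264 were higher and 228 lower. With the replicate number as a block they were 59 and 8, with 0 members called. Leaving out 1 library gave 0 to 144 higher and 0 to 38 lower genes, both 0 without WT replicate 3 (1462 at an unadjusted p under 0.05). The relative median of the APC/C members was -0.042 with no filter, where many genes near 0 enter the median gene. The cause of the other changes was not tested. MAD1L1 had at most 7 recovered reads in a library and UBE2C 57 to 98; the other members had at least 531, and the part of depth in their precision was not tested.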
